A study of Pimephales promelas with 139 samples.

Results

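Whole fathead minnow larvae (Pimephales promelas, a small freshwater fish used in toxicity testing) held in water with 2.5 ng/L ethinyl estradiol were compared with control larvae held without it. Ethinyl estradiol, abbreviated EE2 in the labels, is the synthetic estrogen of oral contraceptives. Exposure was static, lasted 48 h and began 48 h after hatching, so the larvae were 96 h old. The comparison takes 46 of the 139 mRNA libraries of the series: 17 from larvae at 2.5 ng/L and 29 from controls. It leaves out 1 library of the 2.5 ng/L group, replicate 7, whose composition is unlike the others. Experiments 1, 2 and 3 were told apart by ranges of the number in the library title. Each experiment held both groups, with 5 exposed and 10 control libraries in experiment 1, 6 and 9 in experiment 2, and 6 and 10 in experiment 3. The labels give no strain, no sex and no vessel for a larva, so a p-value here speaks of the spread among these libraries only, which may in part be technical.

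In fish, ethinyl estradiol acts through estrogen receptors, nuclear receptors that bind DNA and change transcription of their target genes when a ligand occupies them. The liver answers by making egg yolk and egg shell proteins, among them vitellogenin, which adult males and larvae otherwise produce at very low levels. The estrogen-responsive aromatase of the brain is another known target. None of these genes could be looked up here, since the count table lists transcripts by identifier only and 0 of 64593 genes in the reference gene table given for the species carries such an identifier. Transcripts are therefore called by their identifiers, no gene group was counted, and nothing is said of their function.

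Total counts ran from 11203097 to 27593515 in the 17 exposed libraries and from 11651986 to 30553315 in the 29 control libraries. None of 4 measures of library make-up passed a permutation test between the groups within experiments (2-sided, adjusted over the 4). Exposed libraries had 36498 ± 214 transcripts with a read and controls 36595 ± 120 (SD, adjusted permutation p = 0.257). The 100 most abundant transcripts took 24.9 ± 2.01% of counts in exposed and 24.6 ± 1.99% in control libraries (SD). Without experiment 1 the difference in transcripts with a read, 168 fewer in exposed libraries, passed the threshold (adjusted permutation p = 0.0259). Its part in the results below was not tested.

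Replicate 7 stood apart in its make-up, and it was left out with earlier results of these data known. It held 30768 transcripts with a read, and 42.8% of its counts fell on its 100 most abundant transcripts. Its scaling factor, which edgeR's TMM method computes to make libraries of unlike composition comparable, was 0.453, against 0.884 to 1.09 in the other exposed libraries. Its log2 levels had a median correlation of 0.792 with those of the other 46 libraries, while the least typical of these 46 had a median of 0.924. Of 33028 transcripts, 24.4% were higher in replicate 7 than in every other library and 34.1% were lower than in every other. Results are given without it, and its own values stand beside those that it touches.

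At 2.5 ng/L, 5 transcripts were called against control: FMt030408, FMt030407, FMt030406 and FMt019919 higher and FMt045413 lower. They are 0.0151% of the 33156 transcripts tested, called at an adjusted p under 0.05 (quasi-likelihood F-test of edgeR, Benjamini-Hochberg adjustment over all transcripts, experiment as a term). The lower transcript alone is 0.00302% of those tested. Its call depends on the fit and the filter: it was called in 5 of the 10 other fits that tested it. In 3 of the 5 called transcripts every exposed larva lay above every control, which held for 0.00905% of all transcripts tested. No transcript was lower in every exposed larva than in every control. In whole larvae, fewer cells of a type and less RNA per cell cannot be told apart, and neither can more of either.

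FMt030408 had a lowest level of 10.6, a median of 28 and a highest level of 47.2 CPM in the 17 exposed larvae, against 0.17, 0.429 and 1.02 CPM in the 29 controls. CPM is a transcript's count brought to a common library total, after TMM scaling. The groups were far apart: the lowest exposed larva, replicate 32 of experiment 2, was 10.4 times the highest control. The lowest exposed larva held 246 reads of this transcript, while the controls held 3 to 27. Its log2 change was 5.94 ± 0.16 (SE, 95% interval 5.61 to 6.27, edgeR adjusted p = 1.76e-31), which is 61.3-fold in the fit. Experiments 1, 2 and 3 gave log2 changes of 6.03, 6.02 and 5.8.

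FMt030407, the next lower identifier, had 0.775, 5.22 and 10.2 CPM as lowest, median and highest exposed level, against 0, 0.0986 and 0.341 CPM in controls. Of the 29 controls, 7 had no read of it, whereas each exposed larva had at least 18. The gap between the groups was narrower than for FMt030408, with the lowest exposed larva at 2.27 times the highest control. The log2 change was 5.55 ± 0.30 (SE, edgeR adjusted p = 6.67e-19).

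FMt030406 had 0.646, 2.75 and 6.71 CPM in exposed larvae and 0, 0.0782 and 0.395 CPM in controls, again as lowest, median and highest. The groups did not overlap, although replicate 32 of experiment 2, once more the lowest exposed larva, came within 1.64 times the highest control. The log2 change was 5.05 ± 0.30 (SE, edgeR adjusted p = 2.84e-17). FMt030407 and FMt030406 passed the low-count filter only through exposed larvae, the group where they are high. No control held more than 9 reads of either. Their calls carry that limit. With no low-count filter, over 37085 transcripts, both were called as well. In experiments 1, 2 and 3 the log2 changes were 5.03, 4.44 and 5.51 for FMt030406 and 5.5, 4.94 and 6.11 for FMt030407. Experiment 2 held the smallest change of the 3 for both, but the interaction of exposure with experiment was not called (edgeR adjusted p = 0.863 and 0.821).

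FMt019919 rose less. Its lowest, median and highest levels were 0.781, 1.14 and 2.08 CPM in exposed larvae and 0.0839, 0.37 and 0.86 CPM in controls. The groups touched in 1 larva: 16 of 17 exposed larvae exceeded the highest control, and all 17 exceeded the control median. The log2 change was 1.77 ± 0.18 (SE, edgeR adjusted p = 9.05e-09), or 3.42-fold, with 2.18, 1.82 and 1.37 on the log2 scale in experiments 1, 2 and 3. Exposed larvae averaged 1.19, 1.42 and 1.16 CPM in experiments 1, 2 and 3, and controls 0.257, 0.398 and 0.44 CPM in the same order. The interaction was not called (edgeR adjusted p = 0.766).

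FMt045413 was the only transcript called lower, and it had the lowest mean of the 5 in exposed larvae and the highest in controls. Its lowest, median and highest levels were 0, 0.112 and 0.441 CPM in exposed larvae and 0.0514, 0.389 and 1.66 CPM in controls. No read was found in 4 of 17 exposed larvae and at least 1 in every control, with 48 reads over all exposed and 372 over all control larvae. The groups overlapped: 14 of 29 controls lay above the highest exposed larva, and 16 of 17 exposed larvae lay below the control median. The log2 change was -1.95 ± 0.37 (SE, 95% interval -2.69 to -1.20, edgeR adjusted p = 0.0257), with -2.6, -1.52 and -1.76 in experiments 1, 2 and 3.

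The call of FMt045413 was lost with limma-voom (adjusted p = 0.102, and 0.0912 with a correlation within runs of 5 title numbers). It was also lost without the experiment term (edgeR adjusted p = 0.0536), without experiment 2 (edgeR adjusted p = 0.22) and with the title number as a replicate block. Leaving out replicate 3, 8, 12, 13, 33, 53, 57 or 63 of the exposed group lost it too (edgeR adjusted p = 0.0513 to 0.0707). With replicate 7 included, where it had no read of this transcript, FMt045413 fell under the low-count filter and was not tested. It was also not tested without experiment 1, without experiment 3, or without libraries under 0.5 times the median total. A filter of at least 1 CPM in at least 17 libraries removed it as well. The same held without replicate 58 of the exposed group, or without any 1 of the 14 controls above the highest exposed larva. It therefore entered the main test only through these libraries, mostly controls, the group where it is high. The main call carries that limit. With no low-count filter, over 37085 transcripts, it was called as well.

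**Figure D1:**
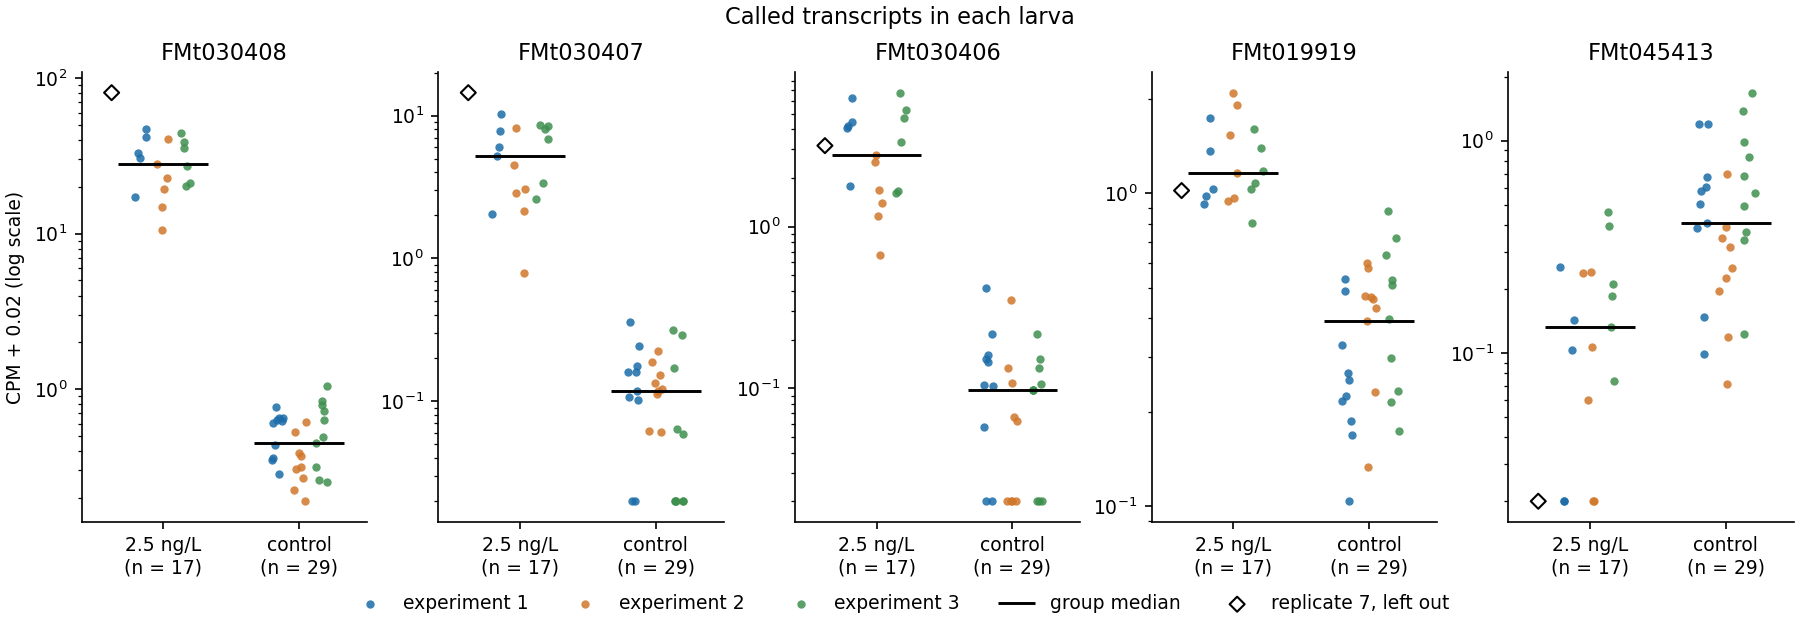
Level of each called transcript in every larva, as CPM plus 0.02 on a log axis, for 17 larvae at 2.5 ng/L and 29 controls; points are larvae coloured by experiment, bars are group medians and the open diamond is replicate 7. The groups are fully separate for FMt030408, FMt030407 and FMt030406, meet in 1 larva for FMt019919, and overlap for FMt045413.

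The levels of replicate 7 depend on its scaling factor. With that factor it held 564 reads or 80.6 CPM of FMt030408 and 14.4 CPM of FMt030407, above all 17 other exposed larvae in both, and 3.14 CPM of FMt030406 and 1 CPM of FMt019919, inside their ranges. Over plain totals, with no scaling factor in any library, an alternative chosen after seeing the data, it had 36.5 CPM of FMt030408, 6.54 CPM of FMt030407 and 1.42 CPM of FMt030406. These lay inside the exposed ranges of 11.4 to 45.1, 0.832 to 10 and 0.693 to 6.78 CPM and above all 29 controls. For FMt019919, with 7 reads, the plain level of 0.453 CPM was under all 17 other exposed larvae and inside the control range, with 10 of 29 controls above it. With replicate 7 included and scaling factors used, the log2 changes were 6.06 ± 0.18, 5.66 ± 0.31, 5.03 ± 0.30 and 1.78 ± 0.18 (SE) for FMt030408, FMt030407, FMt030406 and FMt019919, all called.

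The identifiers FMt030406 to FMt030408 run on without a gap, and the sources used here do not say how a read that fits several of them was counted, so their separate levels are uncertain. Summed over the 3, exposed larvae had 37.4 ± 15.4 CPM and controls 0.67 ± 0.227 CPM (SD, n = 17 and 29). FMt030408 took 77.3% of the reads of the 3 in exposed larvae (10768 of 13923, exact 95% interval 76.6 to 78%) and 70.3% in controls (327 of 465, 65.9 to 74.4%). These intervals cover counting error only. Per library the share was 78.7 ± 4.63% in exposed and 70.7 ± 19% in control larvae (SD), which did not pass a permutation test within experiments (p = 0.1, adjusted over the 3 shares 0.3), and the shares of FMt030407 and FMt030406 did not either (adjusted permutation p = 0.328 for both).

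The transcripts on either side of this run showed no such change. FMt030405 had a median of 58.4 CPM in exposed larvae and 61.8 CPM in controls, with a log2 change of -0.08 ± 0.08 (SE). FMt030409 had medians of 31.3 CPM in exposed and 32.1 CPM in control larvae, with -0.02 ± 0.06. FMt030404 and FMt030410 had log2 changes of -0.16 ± 0.10 and 0.13 ± 0.10. None of the 4 was called, and their 95% intervals lay between -0.35 and 0.33 on the log2 scale.

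Exposed larvae differed widely among themselves in the run of 3. The coefficient of variation over the 17 larvae was 0.383 for FMt030408, 0.542 for FMt030407 and 0.585 for FMt030406. These exceeded 91.7, 91 and 89.8% of the transcripts within 1.5-fold of the same mean level in these larvae, which numbered 5020, 5325 and 4991. FMt019919 was unlike them in this, with a coefficient of 0.302 that exceeded only 12.4% of 4418 transcripts of like level. In the 29 controls the coefficient was 0.454 for FMt030408, 0.529 for FMt019919 and 0.775 for FMt045413. These exceeded 27.8, 46.1 and 91.2% of 3065, 1858 and 3457 transcripts of like level. For FMt030407 and FMt030406 in controls, and for FMt045413 in exposed larvae, only 1 transcript of like level was at hand. All transcripts of like level had passed the low-count filter, so at low levels they are a selected set. These shares describe the larvae compared and are not tests.

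A larva high in FMt030408 tended to be high in the other 2 of the run. Across the 17 exposed larvae, with the mean of each experiment subtracted from log2(CPM + 0.1), r was 0.96 (rho 0.907) between FMt030408 and FMt030407, 0.891 (rho 0.833) between FMt030408 and FMt030406, and 0.919 (rho 0.892) between FMt030407 and FMt030406. Each had an adjusted permutation p of 1e-04 over 10 pairs of called transcripts for r and of 0.00015 to 0.0012 for rho. Without the 2 larvae farthest from the median r was 0.95, 0.857 and 0.878, and within experiments 2 and 3, of 6 exposed larvae each, r lay between 0.912 and 0.981. With replicate 7 the 3 values were 0.955, 0.732 and 0.831. Experiment 1, with 5 exposed larvae, was too small for a value of its own. Reads that fit several of the 3 may enter these correlations, since how such reads were counted is not known. Their part was not tested.

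FMt019919 was not shown to follow them. Its r was 0.272 with FMt030408 (rho 0.277), 0.187 with FMt030407 (rho 0.311) and 0.197 with FMt030406 (rho 0.299), with adjusted permutation p of 0.442 to 0.539 for r. Without the 2 larvae farthest from the median these r were higher, 0.464, 0.434 and 0.306, with adjusted permutation p of 0.155, 0.177 and 0.295. Replicate 32, the lowest of 17 for the run of 3, had 1.9 CPM of FMt019919, second to the 2.08 CPM of replicate 28. FMt045413 ran the other way, with r of -0.554, -0.512 and -0.418 against FMt030408, FMt030407 and FMt030406 (adjusted permutation p = 0.0896, 0.11 and 0.196). By rank the first and second of these passed (rho -0.62 and -0.606, adjusted permutation p = 0.0414 for both). Its values rest on 0 to 9 reads per exposed larva.

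**Figure D2:**
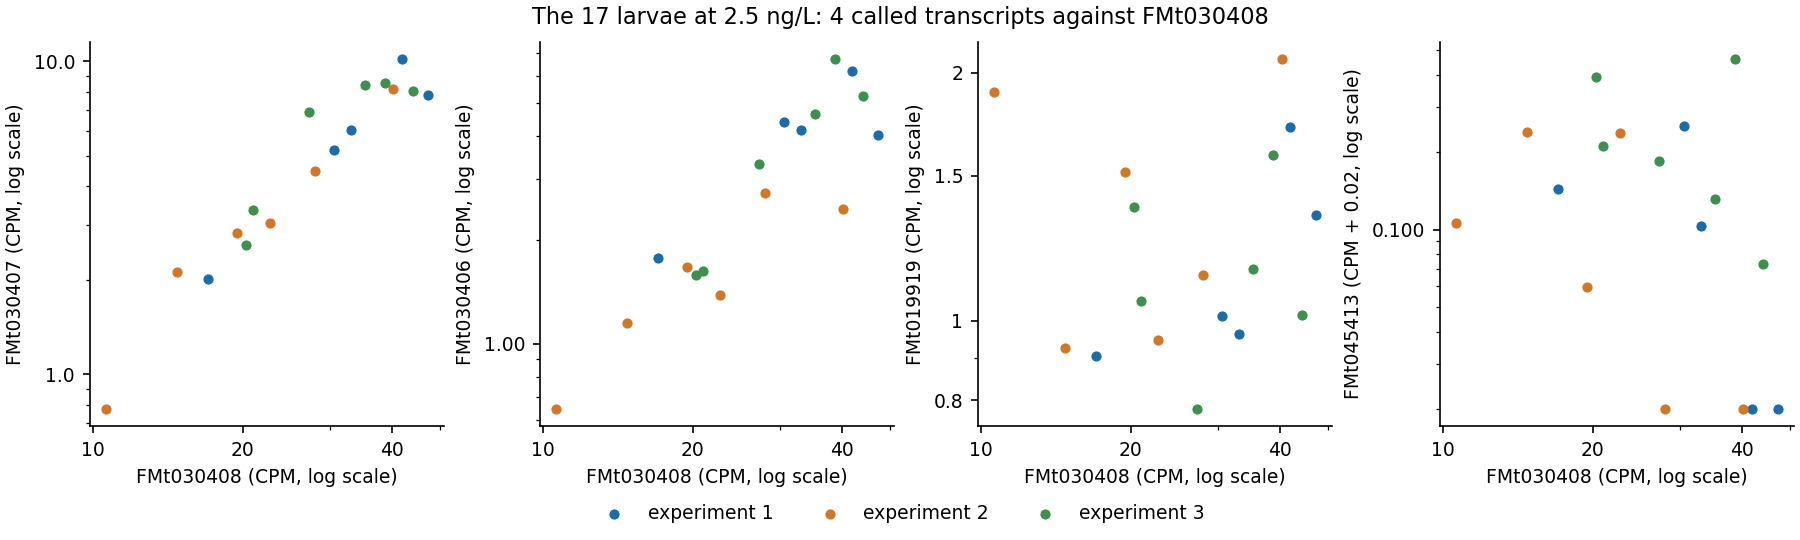
Levels of FMt030407, FMt030406, FMt019919 and FMt045413 (y, CPM on a log axis, with 0.02 added for FMt045413) against FMt030408 (x, CPM on a log axis) in the 17 larvae at 2.5 ng/L, coloured by experiment. FMt030407 and FMt030406 climb with FMt030408 in experiments 2 and 3. In experiment 1 the climb is less even: replicate 3, highest in FMt030408 at 47.2 CPM, had 4.03 CPM of FMt030406, and replicate 12 had 6.19 CPM. FMt019919 has an r of 0.272.

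Below the 5 called transcripts the smallest edgeR adjusted p was 0.287, and with DESeq2 the adjusted p of FMt024505, FMt008261 and FMt000669 was 0.0823. At an unadjusted p under 0.05 stood 8.57% of all transcripts tested. Among the 2836 of them not called, 1487 were higher and 1349 lower in exposed larvae. Over all tested transcripts 52.1% had a positive log2 change, and the median was 0.01.

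The uncalled ones with the smallest p among higher estimates were FMt024505 and FMt008261, both abundant. FMt024505 had 26, 42.7 and 63.9 CPM in exposed larvae against 25.3, 34.4 and 42.5 CPM in controls (lowest, median and highest), and 9 of 17 exposed larvae exceeded the highest control. Its log2 change was 0.30 ± 0.07 (SE, 22.9% higher, edgeR adjusted p = 0.287). FMt008261 had 33.2, 40.4 and 45.7 CPM in exposed larvae and 23.5, 32.9 and 46.5 CPM in controls, at 0.24 ± 0.05 (SE, 17.9% higher, edgeR adjusted p = 0.339). All 17 exposed larvae lay above the control median for FMt008261, yet none above the highest control.

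Among lower estimates, the smallest p outside the calls belonged to FMt000669 and FMt020540. FMt000669 had medians of 1.66 CPM in exposed and 2.52 CPM in control larvae, with a log2 change of -0.46 ± 0.11 (SE, 27.3% less). FMt020540 had medians of 48 CPM in exposed and 57.7 CPM in control larvae, with -0.25 ± 0.06 (SE, 16% less). Each had an edgeR adjusted p of 0.369, and for each 16 of 17 exposed larvae lay below the control median. Leaving out replicate 52 of the exposed group brought FMt020540 to an adjusted p of 0.0498, and leaving out replicate 67 of the controls brought FMt008261 to 0.0267 (edgeR). Leaving out replicate 58 of the exposed group brought a further transcript, FMt046995, to an edgeR adjusted p of 0.0417 at a log2 change of -1.68, while FMt045413 did not pass the filter. FMt046995, named here after its values were seen, averaged 0.208 CPM in exposed and 0.45 CPM in control larvae over all 46 libraries, with a log2 change of -1.37 ± 0.34 (SE, edgeR adjusted p = 0.369).

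**Figure D3:**
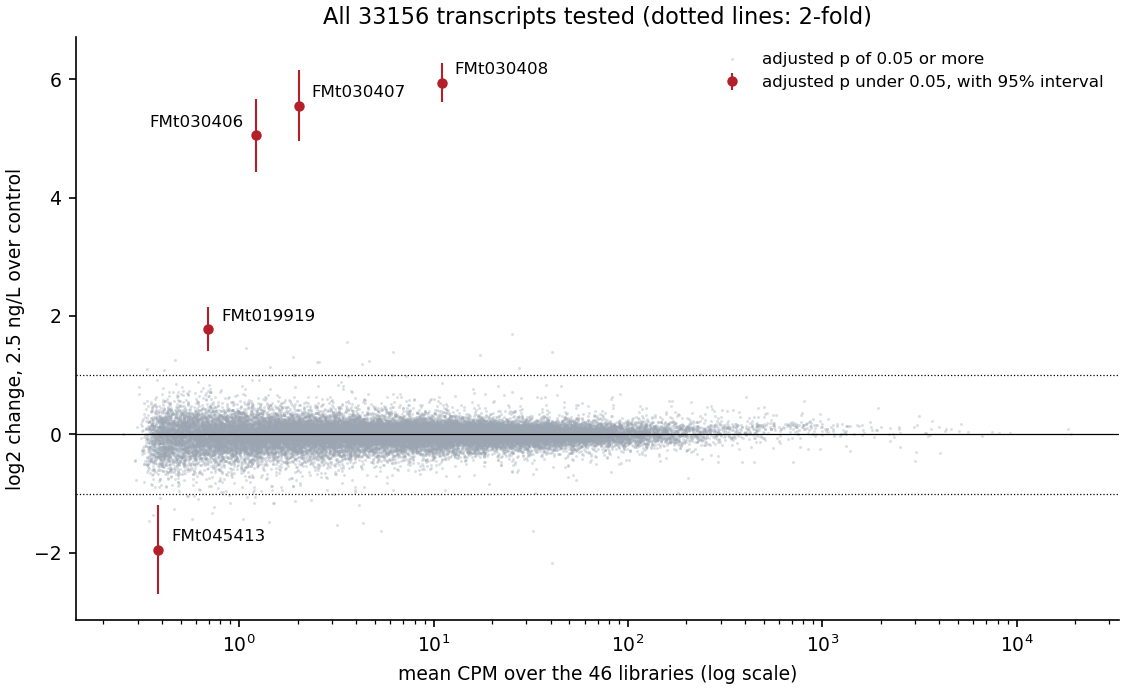
Log2 change at 2.5 ng/L over control (y) against mean CPM over the 46 libraries (x, log axis) for the 33156 transcripts tested, with the 5 called in red and their 95% intervals. The 3 transcripts of the run lie at 5.05 to 5.94, apart from a band that mostly stays inside the dotted 2-fold lines.

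How large a change the uncalled transcripts could still hold depends on their level. The 95% interval of the log2 change lay wholly inside 2-fold for 31889 transcripts, 96.2% of those tested, and inside 1.5-fold for 80%. For the 12438 transcripts of 10 to 100 CPM these shares were 99.1 and 94.5%. For the 4821 transcripts under 1 CPM, the class of FMt019919 and FMt045413, they were 87.9 and 37.9%. The median SE was 0.08 on the log2 scale at 10 to 100 CPM and 0.23 under 1 CPM, so these libraries leave wider intervals for rare transcripts.

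The 3 experiments used separate larvae and separate controls, which allows their log2 changes to be set side by side without shared libraries. Over 28332 transcripts of at least 1 CPM, without the called ones, r was -0.013 between experiments 1 and 2, 0.022 between 1 and 3, and 0.054 between 2 and 3. By rank, rho was 0.002, -0.014 and 0.128 in the same order. The same sign was shared by 49.9, 48.4 and 56.4% of transcripts. These are correlations across transcripts, which are not independent replicates, and they are given as a description. The interaction of exposure with experiment was called for 0 of 33156 transcripts in edgeR (0%) and for 0 in limma-voom. In edgeR 6.45% had an unadjusted p under 0.05, 2139 transcripts, and in limma-voom 2699 of 33156.

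**Figure D4:**
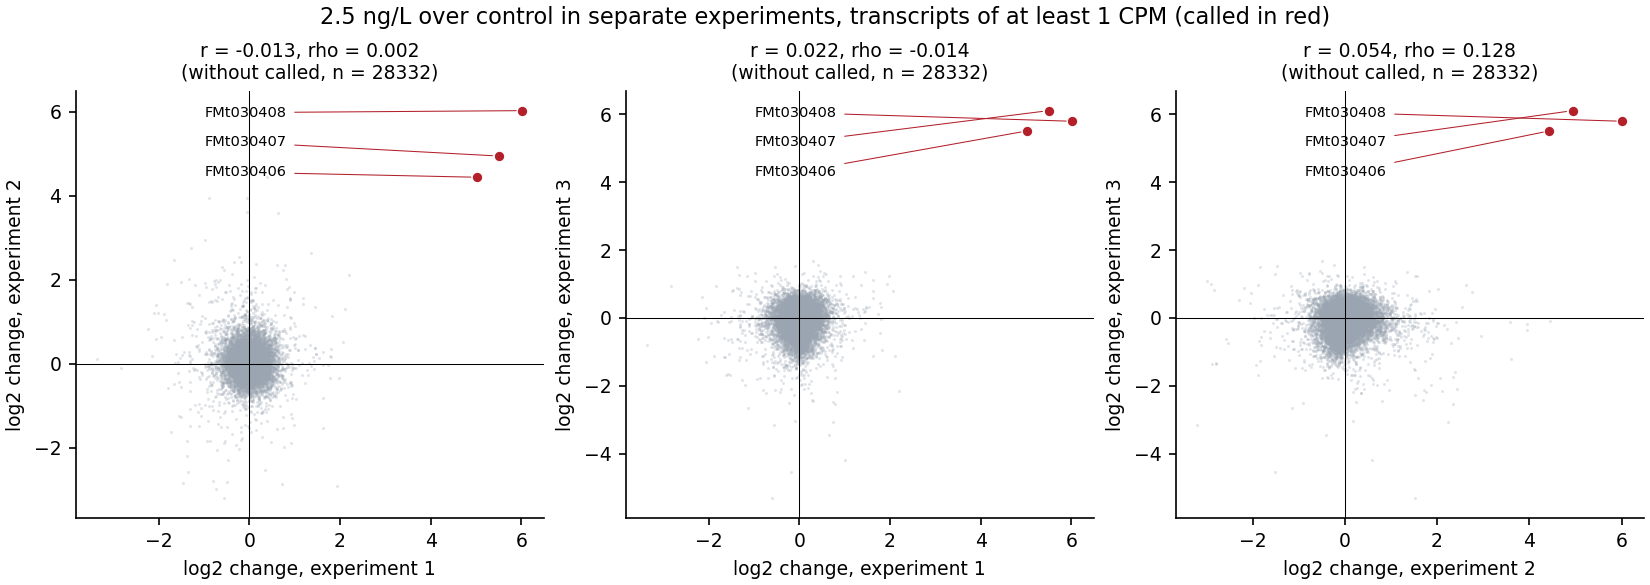
Log2 change at 2.5 ng/L over control in each pair of experiments for 28335 transcripts of at least 1 CPM, with the 3 called ones among them in red. The called transcripts sit at the top right of every panel. The rest have r of -0.013, 0.022 and 0.054 and rho of 0.002, -0.014 and 0.128.

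The other concentrations place these levels. They are set beside the same controls in a fit of all groups without replicate 7, so the comparisons share the controls; in this fit the same number of transcripts, 5, was called at 2.5 ng/L (0.0142% of 35330). In controls and at 0.12, 1.2, 2.5, 5 and 10 ng/L, in that order, FMt030406 averaged 0.0883 ± 0.0962, 0.109 ± 0.156, 1.29 ± 0.884, 3.14 ± 1.84, 11.7 ± 7.23 and 22.7 ± 9.2 CPM (SD, n = 29, 17, 30, 17, 17 and 28). FMt030407 followed with 0.105 ± 0.094, 0.111 ± 0.0908, 2.3 ± 1.56, 5.28 ± 2.86, 19.5 ± 12.6 and 36.1 ± 13 CPM in the same order. The ranges of neighbouring concentrations overlapped at every step for both. The highest larva at 0.12 ng/L had 0.576 CPM of FMt030406 and the lowest at 1.2 ng/L 0.061 CPM. The highest larva at 2.5 ng/L had 6.67 CPM of FMt030406 and the lowest at 5 ng/L 4.1 CPM.

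FMt045413 had no such ladder. Its log2 changes against control were -0.90 ± 0.37, -0.28 ± 0.30, -1.95 ± 0.41, -0.25 ± 0.35 and -0.60 ± 0.31 (SE) at 0.12, 1.2, 2.5, 5 and 10 ng/L, called at 2.5 ng/L alone (edgeR adjusted p = 0.0323). Its mean was 0.525 ± 0.407 CPM in controls and 0.137 ± 0.13 CPM at 2.5 ng/L, with 0.417 ± 0.294 CPM at 5 ng/L (SD). Whether the change at 2.5 ng/L differs from those at the other concentrations was not tested.

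The 2 uncalled transcripts with the smallest p in each direction had estimates of the same sign at every concentration. FMt020540 had log2 changes of -0.17, -0.17, -0.25, -0.25 and -0.29 at 0.12, 1.2, 2.5, 5 and 10 ng/L and was called at 10 ng/L (edgeR adjusted p = 0.000233). FMt024505 had 0.20, 0.15, 0.29, 0.19 and 0.26, and FMt008261 had 0.09, 0.13, 0.24, 0.15 and 0.24, both called at 10 ng/L (edgeR adjusted p = 0.0189 and 0.00709). FMt000669 was lowest at the middle concentrations, with -0.18, -0.19, -0.47, -0.44 and -0.15, and was called at none. All 5 changes of a transcript share the same controls. These transcripts were picked by their p at 2.5 ng/L against those controls, so a like sign elsewhere is no separate support.

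**Figure D5:**
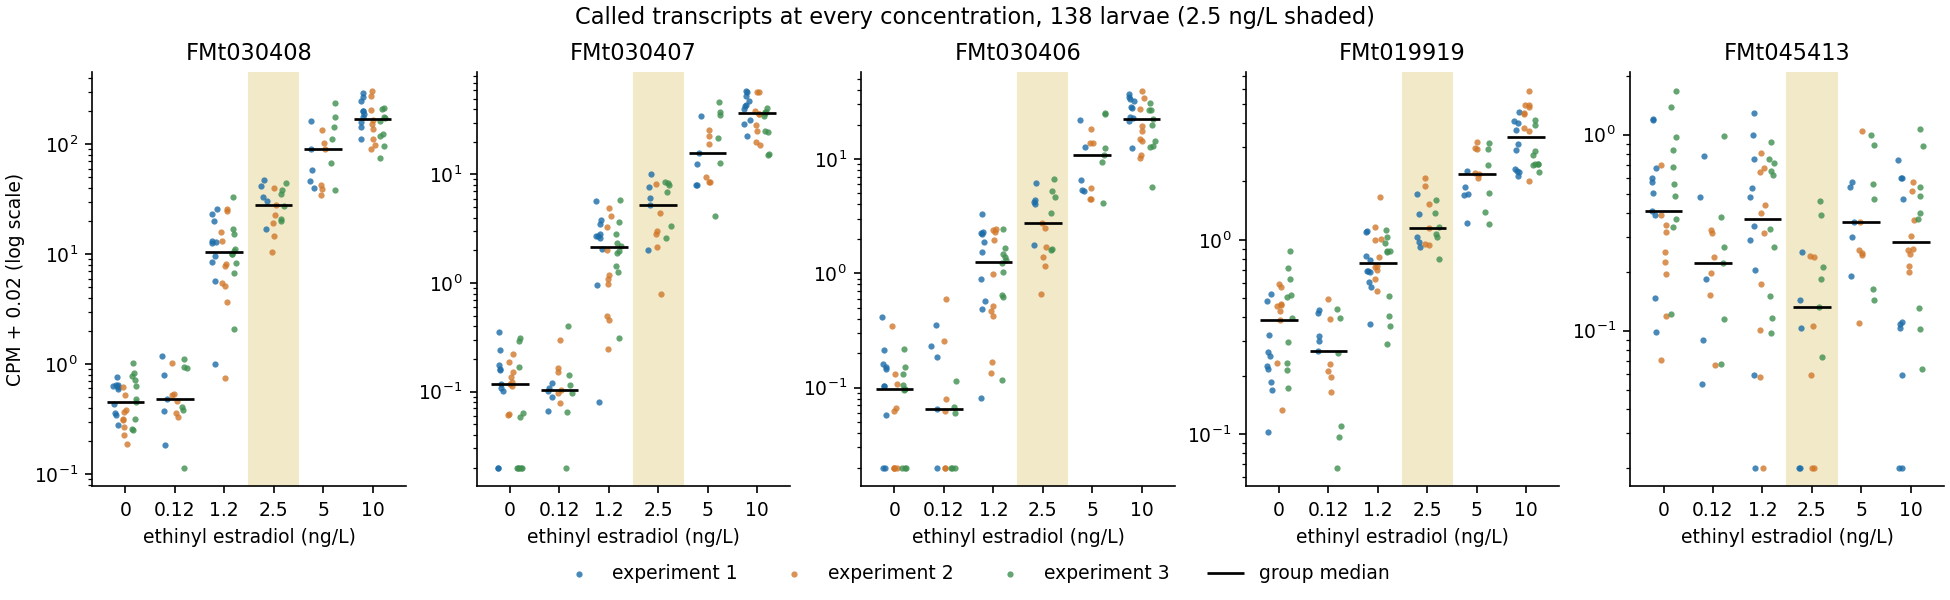
Levels of the 5 called transcripts in the larvae of all groups, without replicate 7, as CPM plus 0.02 on a log axis, at 0 (control), 0.12, 1.2, 2.5, 5 and 10 ng/L, coloured by experiment, with group medians as bars and 2.5 ng/L shaded. The run of 3 and FMt019919 step up from 1.2 ng/L on, and FMt045413 has its lowest median at 2.5 ng/L.

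Transcripts known from earlier results of these data were looked up too. FMt036339 had 1.28, 1.91 and 3.54 CPM in exposed larvae and 0.983, 1.91 and 3.11 CPM in controls (lowest, median and highest), with a log2 change of 0.08 ± 0.12 (SE, 95% interval -0.15 to 0.32). FMt041475 had medians of 145 CPM in exposed and 156 CPM in control larvae, at -0.26 ± 0.08 (SE), and FMt002788 medians of 95.8 and 110 CPM in the same order, at -0.19 ± 0.09. FMt008590 had 0.14 ± 0.09. For these 4 the edgeR adjusted p lay between 0.501 and 0.849.

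The run FMt007494 to FMt007497 was higher in exposed larvae by 0.50 ± 0.20, 0.55 ± 0.19, 0.64 ± 0.18 and 0.47 ± 0.17 (SE, log2) and was not called (edgeR adjusted p = 0.439 to 0.57). FMt007496 had 15.1, 43.5 and 82.1 CPM in exposed larvae and 14.1, 30.8 and 62.4 CPM in controls, and 5 of 17 exposed larvae exceeded the highest control. The estimates were positive in all 3 experiments for all 4. In the fit of all groups without replicate 7, all 4 were called at 10 ng/L against the same controls (edgeR adjusted p = 0.000264 to 0.00818). FMt019848 had medians of 0.553 CPM in exposed and 1.27 CPM in control larvae, at -0.98 ± 0.26 (SE, edgeR adjusted p = 0.431), negative in all 3 experiments. The run and FMt019848 were picked with earlier results of these same data known, so like signs across experiments are no separate support. FMt044460, with 0 to 0.576 CPM in exposed larvae and 0 to 27.1 CPM in controls, did not pass the low-count filter. In the fit of all groups without replicate 7, FMt019848 and FMt044460 were called at no concentration.

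The count with replicate 7 differed between fits. In a fit of the 2 groups with replicate 7, 4 transcripts were called (0.0121% of 33028), although 16.3% had an unadjusted p under 0.05. In a fit of all concentrations with replicate 7, 951 of 35340 were called. For those 951 the median log2 change was 0.45 in both fits that include it and 0.19 without it, while their median SE was 0.15 in the fit of the 2 groups and 0.12 in that of all concentrations. These medians are over transcripts chosen by their call in the fit of all concentrations, and why the counts differ was not tested. Of the 951, 946 were tested without replicate 7 and 5 were called there.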

How the data were processed

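The authors deposited a table of raw counts, whole numbers of reads by transcript, which the series' design text describes as reads matched to mRNA sequences already known in this fish. The tools listed in the submitters' processing notes are edgeR 3.26.8, limma 3.40.6 and bcl2fastq 2.19.1. The sources used here name no aligner, counter or strand setting. Libraries were made from whole larvae with a SENSE mRNA-Seq kit, per the labels' protocols. Groups and title numbers come from the labels, and 0 columns stayed unmapped. The experiment was taken from the title number: 2 to 23 is experiment 1, 27 to 48 is 2 and 52 to 73 is 3. The row without an identifier (0 to 13 reads per library, 1.64e-05% of reads) was dropped, and 37085 transcripts remained. Library pairs within a group and experiment, 166 in all, differed beyond sampling noise (chi-square at least 11.5 times its degrees of freedom).

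The counts were fitted with edgeR 4.0.16 under R 4.3.3 (quasi-likelihood, robust, TMM scaling, experiment as a term). Transcripts were kept by filterByExpr (minimum count 10, total 15), which left 33156 of 37085 in 46 libraries. The SE is the log2 change over the square root of F. CPM are counts over the TMM-scaled total. Permutation tests drew 1e+05 label orders within experiments. Whether the title numbers pair the larvae was checked: same-numbered exposed and control larvae had correlations of deviations from -0.253 to 0.398, over 0.1 in 3 of 17 pairs, so the numbers were not taken as pairs. The library left out, the transcripts looked up and the lists were chosen with earlier results of these data known. Named are all called transcripts, the 2 next by p in each direction, the 2 identifiers on each side of a called run, and transcripts known from earlier results; the shares within the run of 3, the spread against transcripts of like level, the comparison across experiments and the largest uncalled estimates were added after values were seen. Alternatives were other scaling, filters, DESeq2 1.42.0, limma-voom 3.58.1, other terms, and leaving out experiments or libraries.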

Additional observations from a re-analysis of the deposited data

Results flagged for a closer look

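Within each group and experiment, 54 sets of libraries were searched for a larva far from the rest in the 5 called transcripts and 4 measures of library make-up, and 6 were found. The rule is set to pick out about 1 set in 20 where nothing differs. Its rate in these data, where several transcripts have few reads, was not measured. FMt030406 was high at 0.395 CPM in control replicate 8 of experiment 1, where the next was 0.197 CPM, and at 0.329 CPM in control replicate 42 of experiment 2, where the next was 0.113 CPM. Control replicate 12 of experiment 1 had a total of 11652000 counts, the lowest of its set, and the next lowest had 21711000. Exposed replicate 28 of experiment 2 had 35941 transcripts with a read, where the next lowest exposed larva of that experiment had 36404. Control replicate 28 of experiment 2 had the lowest scaling factor of its set, 0.915 against 0.981 for the next, and the highest share of counts in the 100 most abundant transcripts, 28.7% against 26.2%.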

How the results depend on the processing

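The fit of all concentrations with replicate 7 and the plain totals were chosen after seeing the data. The count of 5 was 1 with a filter of at least 1 CPM in at least 17 libraries, which removes the other 4 called transcripts. In the fit of all concentrations with replicate 7 it was 951 of 35340 tested. Leaving out each of the 46 libraries in turn gave 4 to 6 calls. With the title number as a replicate block 4 transcripts were called, and FMt045413 was not (log2 change -1.91); 3 of 17 exposed larvae correlated best with the control of their own number. FMt030408 was called in all 15 other fits at log2 changes of 5.85 to 6.06. FMt030407, FMt030406 and FMt019919 were called in the 14 that tested them, at 5.25 to 5.81, 4.78 to 5.27 and 1.6 to 1.99. FMt045413 was called in 5 of the 10 that tested it, at -2.09 to -1.91, and in 23 of 31 leave-one-out fits. In the other 15 it did not pass the filter. These left out exposed replicate 58 or 1 of the 14 controls above the highest exposed larva. Every leave-one-out fit that tested it therefore kept all 14 of these controls, so the 23 calls are no separate support for the fall. The main call rests on the same filter and the same controls. A correlation within runs of 5 title numbers was estimated at -0.00996 by limma.

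Uncalled changes near 0 turned sign: FMt030409 was 0.076 with replicate 7, 0.029 without experiment 1, 0.069 in the fit of all concentrations with replicate 7 and -0.048 to 0.0075 when libraries were left out, and FMt036339 was -0.044 without experiment 3. Without experiment 3 the scaling factors differed by 0.0026 and the share of the 100 most abundant transcripts by -0.92 percentage points (exposed minus control); without experiment 1 the transcripts with a read differed by -168. The r of FMt045413 passed the threshold with replicate 7 against FMt030408 (-0.601) and FMt030407 (-0.562), and without the 2 farthest larvae against FMt030407 (-0.612) and FMt030406 (-0.698). The causes were not tested. Levels under 0.5 CPM rest on few reads per larva, which limits FMt045413 and the control values of all 5.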

Other observations

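The largest estimates that were not called, taken after their values were seen from transcripts of at least 1 CPM, all had wide ranges between larvae of the same group. FMt045981 had a median of 21.1 and a highest level of 377 CPM in exposed larvae, against 0.671 and 60.7 CPM in controls, with a log2 change of 1.69 ± 0.79 (SE, edgeR adjusted p = 0.579). It was positive in experiments 1, 2 and 3 at 1.36, 2.64 and 0.96. FMt039924 had medians of 3.59 CPM in exposed and 4.66 CPM in control larvae, with highest levels of 275 and 360 CPM in the same order, and a log2 change of -2.18 ± 0.90 (SE, edgeR adjusted p = 0.57). In exposed larvae its second highest level was 7.68 CPM, whereas in controls it was 342 CPM. FMt043989 had medians of 1.06 CPM in exposed and 44.2 CPM in control larvae and ranges of 0.288 to 97.2 and 0.482 to 148 CPM, at -1.64 ± 0.84 (SE, edgeR adjusted p = 0.586). Its log2 changes in experiments 1, 2 and 3 were -0.18, -1.51 and -4.54. FMt046821, at 1.56 ± 0.86, was positive in experiment 2 at 4.45 and near 0 in experiments 1 and 3 at 0.38 and -0.09.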
